A study of Mus musculus with 6 samples.

Results

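The genes described here carry arginine into the cell, split it, and turn the product into polyamines. They are Slc7a1, Arg1, Arg2, Oat, Odc1, Azin1, Amd1, Srm, Sms and Sat1, and they were taken by symbol as 10 of the 21017 rows of the deposited gene count table. Their RNA was measured in group 2 innate lymphoid cells (ILC2s), tissue lymphocytes that make type 2 cytokines. Both populations came from the lungs of C57BL/6J mice, 8 weeks old, that carried the IL-10GFP reporter, in which cells that express Il10 fluoresce green. All mice had received 3 intranasal doses of recombinant mouse IL-33 (0.5 µg each), an alarmin that activates ILC2s, and the sorted ILC2s of both groups had been kept for 48 h in IL-2, IL-7 and IL-4 (10 ng/mL each). A second sort then gave 3 libraries of IL-10-producing and 3 of IL-10-negative ILC2s, so the 2 groups share mice of 1 genotype, the IL-33 and all 3 culture cytokines. Cells before culture and cells kept without IL-4 are not analysed here. Whether the libraries of a group were made from different mice is not stated in the labels, and every p-value below therefore rests on a spread between libraries that could be technical.

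Arginase hydrolyses arginine to ornithine and urea. Ornithine can be decarboxylated by ornithine decarboxylase to putrescine, from which spermidine and spermine are built with aminopropyl groups from decarboxylated S-adenosylmethionine, or it can be passed by ornithine aminotransferase towards glutamate and proline. Polyamines bind nucleic acids, and spermidine supplies the hypusine residue of the translation factor eIF5A. Arginase 1 is known as a constitutive product of lung ILC2s and of macrophages stimulated with type 2 cytokines.

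IL-10-producing ILC2s held more Arg1, Odc1, Azin1 and Sms RNA than IL-10-negative ILC2s and slightly less Oat RNA. The Arg1 difference was 1.57-fold, and the other differences were between 0.951-fold and 1.16-fold. Of the 10 genes, 9 had enough counts to be tested (Arg2 did not), 4 rose, 1 fell and 4 did not pass the test, which was edgeR's quasi-likelihood test with Benjamini-Hochberg adjustment over all 16654 genes tested and a threshold of 0.05. Over all genes tested, 17.1% were higher and 18.6% lower by the same rule, 35.7% in either direction. The higher genes made up 47.8% of these calls, and 36.8% when libraries were scaled by their totals alone. The 5 genes that passed were also those whose groups did not overlap, a pattern seen in 45.2% of all genes tested. The median log2 fold change of the 9 tested genes was 0.04, against -0.004 over all genes tested. Over the 2359 tested genes with a mean of at least 100 counts per 1000000 it was 0.03.

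Il10 itself, the gene whose reporter was sorted on, checks the labels: it had 848 ± 7.78 CPM (counts per 1000000 counts of the library, scaled with TMM factors) in the producing cells and 13.5 ± 0.608 CPM in the negative cells (SD, n = 3). Library totals ran from 47012941 to 69511433 counts. IL-10-producing libraries 1 to 3 had 54483205, 69511433 and 47012941 counts, and IL-10-negative libraries had 51218587 to 57989729. Of 12 ILC2 markers, all with at least 5 CPM in both groups, 4 rose and 6 fell. Markers of other cells also differed between the groups. All 14 T cell markers fell, with a median log2 fold change of -2.67. Their summed level was 91.9 to 95.5 CPM in IL-10-producing and 180 to 187 CPM in IL-10-negative libraries. These sums understate most of the list, because the most abundant markers changed least: Trbc2 stood at 48.2 ± 0.711 and 58.4 ± 0.653 CPM and Trbc1 at 18.8 ± 0.545 and 21.2 ± 0.907 CPM. Cd8a stood at 0.0594 ± 0.0043 and 15.3 ± 0.408 CPM, Trac at 0.428 ± 0.115 and 5.95 ± 0.234 CPM, and Cd3e at 1.25 ± 0.0789 and 8.19 ± 0.283 CPM. Of 10 markers of mast cells, basophils and eosinophils, 9 fell (summed 24.7 to 27.8 against 73.5 to 78.6 CPM). Of 5 tested markers of neutrophils and their precursors 3 fell (1.74 to 2.46 against 34.9 to 38.6 CPM). Most of the latter sum was Mpo (0.954 ± 0.282 against 30.6 ± 1.64 CPM) and Elane (0.209 ± 0.0449 against 4.15 ± 0.361 CPM). Every other marker of that list with a row was under 1 CPM in both groups, and of these Ngp and Ltf did not pass. Of 6 tested B cell markers 1 rose and 4 fell (42 to 44.6 against 37.2 to 38.2 CPM), and of 3 tested markers of lung epithelium, endothelium and fibroblasts 1 rose and 1 fell (119 to 125 against 104 to 111 CPM). Of 10 proliferation genes, 9 rose, with a summed level of 5300 to 5370 against 4230 to 4270 CPM. The part of these differences in the results below was not tested, and in bulk RNA fewer cells of a type and less RNA per cell cannot be told apart.

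Per kilobase of merged exons, Arg1 was the most abundant of the 10 RNAs in both populations, at 405 ± 5.18 CPM per kb in IL-10-producing and 257 ± 3.10 CPM per kb in IL-10-negative libraries. Odc1 came next, at 106 ± 0.712 and 96.4 ± 0.857 CPM per kb, followed by Oat, at 85.9 ± 1.61 and 90.4 ± 1.74 CPM per kb. Srm, Azin1, Slc7a1, Amd1 and Sat1 followed in that order, between 37.0 ± 1.05 and 16.3 ± 0.521 CPM per kb in IL-10-producing cells. Sms lay at 7.08 ± 0.229 and Arg2 at 0.0273 ± 0.0130 CPM per kb there. The order was the same in both populations, and no neighbouring genes in it had overlapping ranges over the 3 libraries of a group. With the length of the longest transcript in place of merged exons, Sat1 and Amd1 changed places in both populations, and Slc7a1 and Azin1 did so in IL-10-negative cells. The rest of the order held under both lengths. These levels leave out near-identical copies of the genes elsewhere in the genome. Such copies held 56.6% of the pooled counts of Sms and 38.5% of those of Amd1. The order with copies pooled was not computed.

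**Figure D1:**
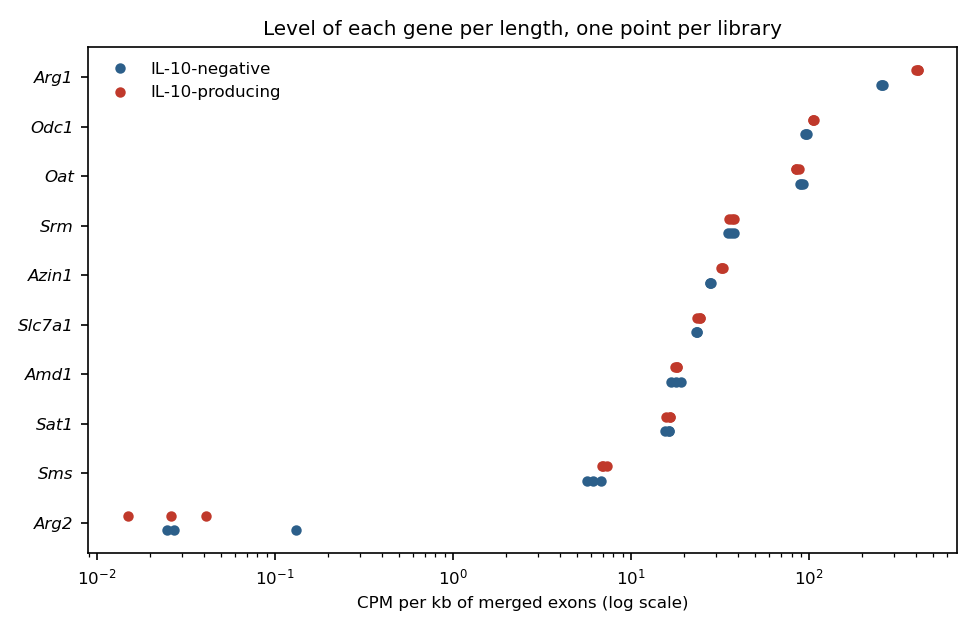
Level of each gene in CPM per kb of merged exons (log axis), with a point for each of the 6 libraries, blue for IL-10-negative and red for IL-10-producing. Arg1 lies highest, at 405 ± 5.18 CPM per kb in IL-10-producing cells, and Arg2 lowest, at 0.0273 ± 0.0130 CPM per kb.

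Slc7a1 encodes the cationic amino acid transporter CAT-1, a main route of arginine into cells (chromosome 5, 148327410 to 148399904, minus strand, mm10). It stood at 283.3, 282.5 and 271.9 CPM in IL-10-producing libraries 1 to 3 and at 273.0, 271.6 and 269.4 CPM in IL-10-negative libraries 1 to 3. The groups overlapped only through IL-10-producing library 3. The log2 fold change of 0.04 (95% interval -0.001 to 0.09) did not pass the test (adjusted p = 0.127), but it did without IL-10-producing replicate 3 (0.06, adjusted p = 0.0154).

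Arg1 encodes the cytosolic arginase (chromosome 10, 24915221 to 24927484, minus strand). Its level was 909.8, 889.8 and 909.7 CPM in the IL-10-producing libraries and 580.4, 566.5 and 573.3 CPM in the IL-10-negative libraries. Every IL-10-producing library was above every IL-10-negative library, and the coefficient of variation within a group was 1.28% and 1.2%. The rise was 1.57-fold (95% interval 1.54 to 1.62, log2 fold change 0.66, SE 0.0177, adjusted p = 1.13e-19). Among the 2359 tested genes with a mean of at least 100 CPM, this was the fourth largest rise, after Il10 (5.97), Il1r2 (0.88) and Apobr (0.74), and 0.551% of these genes had a larger absolute log2 fold change.

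Macrophages also make Arg1, and their markers were read beside it. Of 8 tested macrophage and monocyte markers 2 rose and 3 fell, and their summed level was 13.1 to 13.5 CPM in IL-10-producing and 12 to 13.5 CPM in IL-10-negative libraries. The 2 that rose were also the most abundant of the list: Chil3 stood at 6.61 ± 0.495 and 5.34 ± 0.262 CPM (adjusted p = 0.0124) and Cd68 at 4.85 ± 0.576 and 3.87 ± 0.294 CPM (adjusted p = 0.0255). The 3 that fell were all under 1 CPM: Adgre1 (F4/80) stood at 0.193 ± 0.0608 and 0.656 ± 0.205 CPM, Csf1r at 0.217 ± 0.0762 and 0.887 ± 0.257 CPM, and Mrc1 at 0.144 ± 0.078 and 0.701 ± 0.178 CPM. Mertk stood at 0.0217 ± 0.0219 and 0.0366 ± 0.0356 CPM, and Retnla, Marco and Fcgr1 had no row in the count table. What part of the Arg1 RNA came from such cells was not tested.

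The genes whose pattern was most like that of Arg1 were picked by the smallest root mean square distance of centred log2 CPM over the 6 libraries among 4427 named genes with at least 50 CPM. The 5 nearest were S100a6, a calcium-binding protein (distance 0.0219, 717 against 465 CPM), Klrg1, an inhibitory receptor of lymphocytes (0.0263, 476 against 309 CPM), the kinase gene Tec (0.0330, 86.2 against 54.2 CPM), the mitophagy receptor gene Bnip3 (0.0406, 176 against 117 CPM) and the inflammasome sensor gene Nlrp3 (0.0408, 76.7 against 51.2 CPM). Their log2 fold changes were between 0.58 and 0.67. The distance was computed over the same libraries as the fold change, so it describes the pattern and is no separate evidence.

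Arg2 encodes the mitochondrial arginase (chromosome 12, 79130777 to 79156301, plus strand). It had 2, 4 and 1 counts in the IL-10-producing libraries and 2, 11 and 2 counts in the IL-10-negative libraries, or 0.0390 ± 0.0186 and 0.0873 ± 0.0870 CPM. Of the 15 counts in IL-10-negative cells, 11 came from a single library, and the groups overlapped. It did not pass the filter on low counts, and in the fit without that filter its log2 fold change was -1.09 (SE 0.93, adjusted p = 0.45). Part of its exon sequence (285 bases) lies opposite the last part of its neighbour Vti1b, which had 2885 to 4084 counts, so even these few counts are uncertain where strand was not used. Nearly all arginase RNA in both populations was therefore Arg1.

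**Figure D2:**
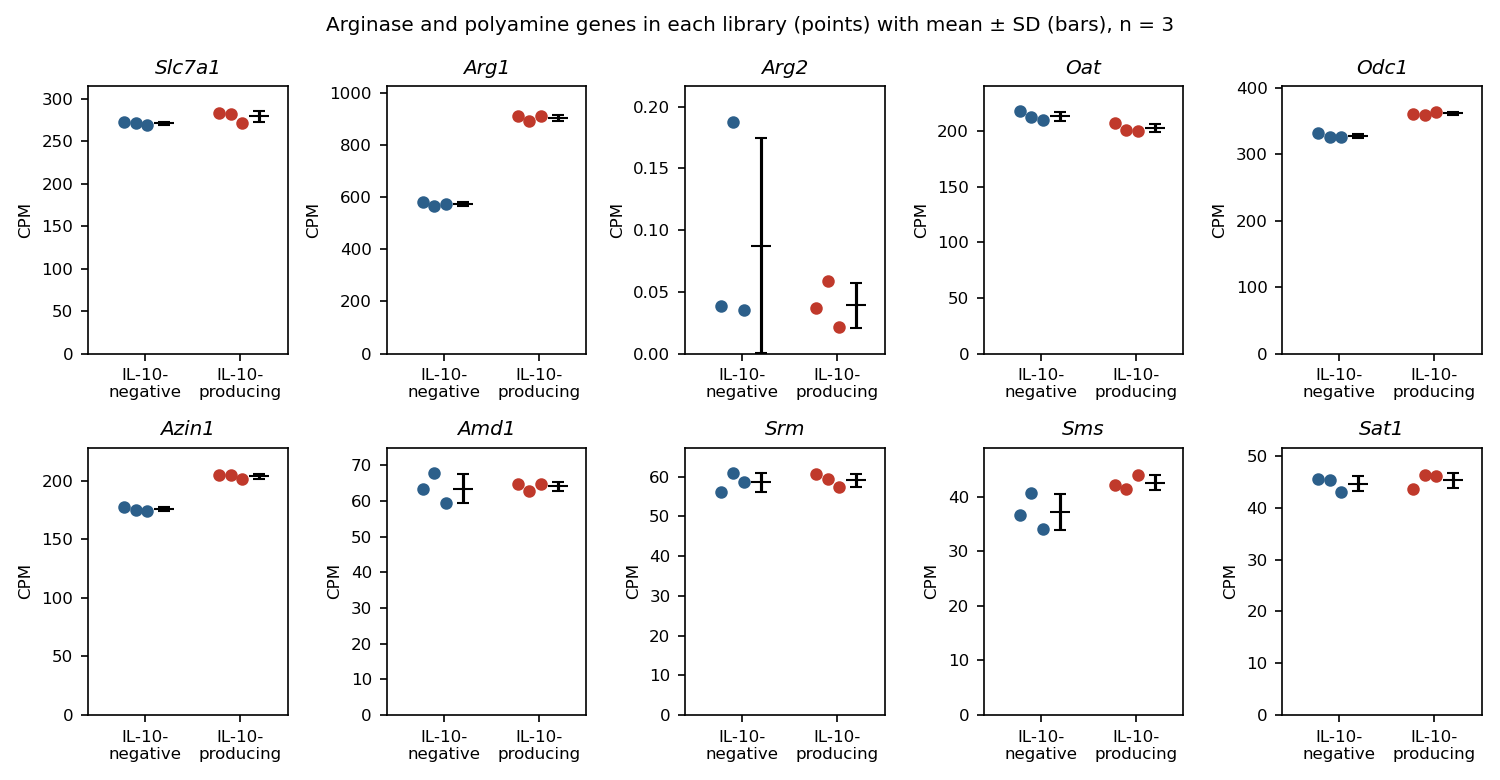
CPM of the 10 genes in each library (blue points IL-10-negative, red points IL-10-producing), with the mean and SD of 3 libraries as bars beside them; each panel starts at 0 and has its own scale. Arg1 shows the widest separation, 903 ± 11.5 against 573 ± 6.91 CPM, while the points of Srm, Sat1, Amd1 and Arg2 intermingle.

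Oat encodes ornithine aminotransferase, the mitochondrial enzyme that takes ornithine towards glutamate and proline (chromosome 7, 132557478 to 132576398, minus strand). Its level was 207.2, 201.3 and 200.1 CPM in the IL-10-producing libraries and 217.8, 212.7 and 209.7 CPM in the IL-10-negative libraries. The groups did not overlap, although the highest IL-10-producing library was close to the lowest IL-10-negative library. Oat fell by 4.95% (log2 fold change -0.07, SE 0.0223, adjusted p = 0.0115). Without IL-10-negative replicate 1 the call was lost (-0.06, adjusted p = 0.0833), and no gene of the 10 was then lower.

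Odc1 encodes ornithine decarboxylase, the enzyme that commits ornithine to polyamines (chromosome 12, 17544794 to 17551505, plus strand). It stood at 361.3, 359.5 and 364.3 CPM in the IL-10-producing libraries and at 331.6, 326.6 and 326.4 CPM in the IL-10-negative libraries. The groups lay apart by more than the spread within either. The rise was 10.2% (95% interval of the fold change 1.07 to 1.13, log2 fold change 0.14, SE 0.0190, adjusted p = 1.52e-06). Odc1 has 6 near-identical copies elsewhere in the genome that held 17.8% of their pooled counts, and with the copies added the levels were 440 ± 2.62 and 400 ± 2.31 CPM (log2 fold change 0.14, adjusted p = 1.12e-06).

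Azin1 encodes antizyme inhibitor 1, a relative of ornithine decarboxylase without its activity, which binds antizyme and so spares the enzyme from degradation (chromosome 15, 38487427 to 38519266, minus strand). Its level was 205.1, 204.7 and 201.1 CPM in the IL-10-producing libraries and 177.8, 174.5 and 174.4 CPM in the IL-10-negative libraries. The groups did not overlap, and after Arg1 this was the largest rise of the 9 tested genes, at 1.16-fold (95% interval 1.13 to 1.2, log2 fold change 0.21, adjusted p = 1.12e-08). An antisense gene, Gm49077, shares 358 exon bases with Azin1 and had 5.63 to 27.5 counts, against 9207 or more for Azin1.

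Amd1 encodes S-adenosylmethionine decarboxylase, which supplies the aminopropyl donor (chromosome 10, 40287458 to 40302186, minus strand). It stood at 64.78, 62.77 and 64.78 CPM in the IL-10-producing libraries and at 63.33, 67.80 and 59.47 CPM in the IL-10-negative libraries. The IL-10-negative libraries spanned the IL-10-producing libraries, and the log2 fold change of 0.01 (95% interval -0.07 to 0.09) did not pass the test (adjusted p = 0.852). The gene Amd2, also on chromosome 10, is 99.6% identical to Amd1 over 3202 bases. With 4 near-identical copies pooled, which held 38.5% of the counts, the log2 fold change was -0.005 (95% interval -0.07 to 0.06, adjusted p = 0.926).

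Srm encodes spermidine synthase (chromosome 4, 148591503 to 148594993, plus strand). Its level was 60.59, 59.49 and 57.30 CPM in the IL-10-producing libraries and 56.25, 60.99 and 58.58 CPM in the IL-10-negative libraries. The groups overlapped, with a fold change of 1.01 (95% interval 0.959 to 1.06, adjusted p = 0.821).

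Sms encodes spermine synthase, which turns spermidine into spermine (chromosome X, 157443855 to 157492287, minus strand). It stood at 42.23, 41.36 and 44.06 CPM in the IL-10-producing libraries and at 36.65, 40.66 and 34.17 CPM in the IL-10-negative libraries. IL-10-negative library 2 came within 1 CPM of the lowest IL-10-producing library, and the other IL-10-negative libraries lay lower. Sms rose by 14.3% (95% interval of the fold change 1.07 to 1.23, log2 fold change 0.19, SE 0.0489, adjusted p = 0.00286). The size of this rise rested on how reads were divided between Sms and its processed copy Sms-ps, which is also on chromosome X and matched an Sms transcript with 100% identity over 1101 bases. The first 60 coding bases of Sms and the matching stretch of Sms-ps are shown to illustrate that short reads from this part of the RNA cannot be assigned to either gene; the start codon is in capitals, and the sequences come from GENCODE M21.
Sms: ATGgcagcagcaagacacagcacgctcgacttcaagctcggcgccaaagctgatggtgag
Sms-ps: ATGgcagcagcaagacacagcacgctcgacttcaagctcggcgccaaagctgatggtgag
The 2 stretches had 0 differences. Sms-ps held 129% of the counts of Sms, at 52.2 ± 1.34 against 50.7 ± 1.22 CPM, and did not pass the test (log2 fold change 0.04, adjusted p = 0.371). With Sms-ps and the 2 other copies added to Sms, the levels were 95.1 ± 1.83 and 88.4 ± 3.90 CPM, and the log2 fold change was 0.10 (pooled interval 0.04 to 0.17, adjusted p = 0.00884). The pooled rise still passed the test, at a smaller size.

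Sat1 encodes spermidine/spermine N1-acetyltransferase, the enzyme that acetylates polyamines for export or oxidation (chromosome X, 155213132 to 155216449, minus strand). Its level was 43.68, 46.28 and 46.07 CPM in the IL-10-producing libraries and 45.53, 45.48 and 43.08 CPM in the IL-10-negative libraries. The groups overlapped, and the fold change was 1.01 (95% interval 0.961 to 1.07, adjusted p = 0.721).

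**Figure D3:**
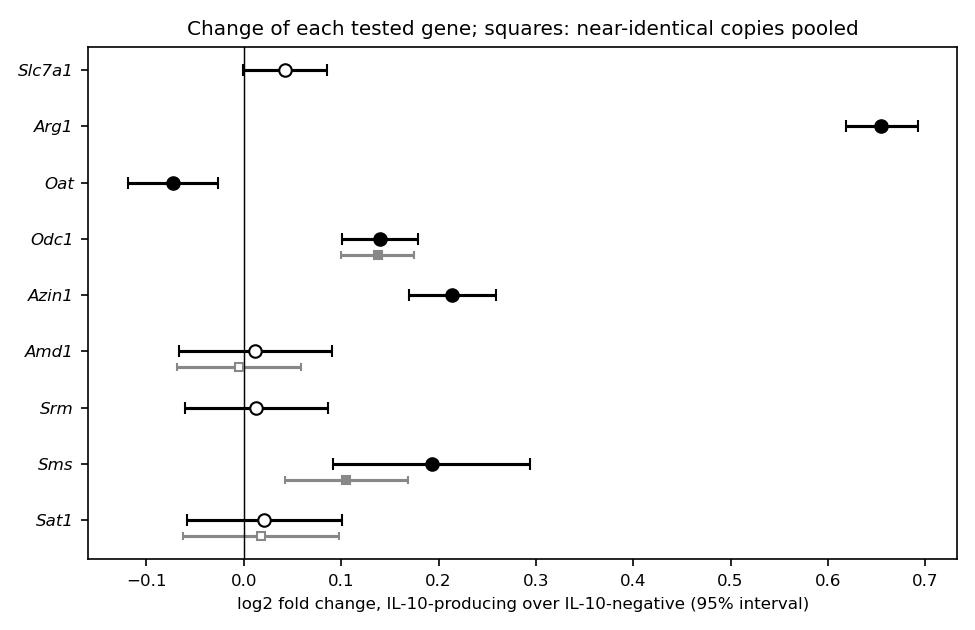
Log2 fold change of the 9 tested genes, IL-10-producing over IL-10-negative, with 95% intervals; filled symbols passed the test and open ones did not, and grey squares give the values with near-identical copies pooled. Arg1 stands alone at 0.66, and pooling moves Sms from 0.19 to 0.10.

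For the promoters, RefSeq windows of 250 bases before a transcript start (GRCm38.p6) held 6 of the 10 genes in 8 windows. Arg1, Arg2, Srm and Azin1 had no window, so no motif was searched before these genes. The letters searched were the E-box CACGTG, the sequence bound by MYC and MAX, the palindrome TTCNNNNGAA of STAT6-type sites, and GGGCGG, the core of SP1 sites, all on both strands; the motifs do not overlap each other in sequence. Over all 32851 such windows, 6.02% held CACGTG, 5.85% TTCNNNNGAA and 32.7% GGGCGG. Of the 8 windows, 1 (directly before the Sms gene start) held CACGTG, 0 held TTCNNNNGAA, and 5, of Amd1, Odc1, Sat1, Slc7a1 and Sms, held GGGCGG. The windows of Odc1 (chr12:17544623-17544793, plus strand, 171 bases, 77.2% G and C, GGGCGG on either strand in capitals) and Sms (chrX:157492288-157492537, minus strand, 47.2% G and C, CACGTG in capitals) are shown because both genes rose and the Sms window is the only 1 of the 8 with CACGTG. The Odc1 window is shown only up to the start of the gene in GENCODE M21, which left 171 of its 250 bases. The shares of windows with a motif were counted on all 250 bases. The other Sms window, at chrX:157491369-157491618, had 75.2% G and C, 3 matches to GGGCGG in 250 bases and none to CACGTG. The 171 bases of Odc1 also held 3 matches to GGGCGG.
Odc1: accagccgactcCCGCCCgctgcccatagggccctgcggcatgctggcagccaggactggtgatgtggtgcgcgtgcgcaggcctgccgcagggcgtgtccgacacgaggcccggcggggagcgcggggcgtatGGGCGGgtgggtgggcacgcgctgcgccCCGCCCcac
Sms: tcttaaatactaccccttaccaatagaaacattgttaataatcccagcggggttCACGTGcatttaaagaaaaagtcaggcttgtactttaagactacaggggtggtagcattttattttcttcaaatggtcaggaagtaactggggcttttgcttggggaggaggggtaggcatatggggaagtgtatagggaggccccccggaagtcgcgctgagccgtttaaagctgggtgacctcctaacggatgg
A match is a run of letters and not a binding site, and a missing motif says only that these letters are not in the window.

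The other genes of arginine and polyamine metabolism moved in both directions. Of 69 genes in 9 lists, 9 had no row, 57 were tested, 13 rose, 15 fell and 29 did not pass, with a median log2 fold change of -0.001. Near-identical copies of these genes were not examined. As background for these counts and those of each list below, 17.1% of all genes tested were higher and 18.6% lower, 35.7% in either direction. In 45.2% of all genes tested the groups did not overlap.

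Among the genes of arginine supply, 1 of 7 tested rose and 2 fell. Ass1, which encodes argininosuccinate synthase and rebuilds arginine from citrulline, rose from 49.8 ± 0.612 to 62.8 ± 2.34 CPM (log2 fold change 0.34, adjusted p = 2.01e-08), while Asl, which completes that step, stood at 25.4 ± 1.29 and 27.5 ± 0.573 CPM (adjusted p = 0.0672). Asl passed as lower with library size only (-0.14, adjusted p = 0.0216) and without IL-10-producing replicate 3 (-0.14, adjusted p = 0.0439). Slc3a2, the heavy chain CD98 shared by several amino acid transporters, fell from 395 ± 6.85 to 295 ± 2.49 CPM (-0.42, adjusted p = 8e-15). The other fall was of the transporter gene Slc7a2 (CAT-2), named after its values were seen, which stayed under 5 CPM (4.33 ± 0.529 to 1.63 ± 0.139, log2 fold change -1.40, or -0.93 with limma on log2 of the authors' values plus 1). Of the genes for other uses of arginine, Gatm, the first enzyme of creatine synthesis, was the 1 of 3 tested that rose, from 5.71 ± 0.234 to 7.83 ± 0.371 CPM (0.46, adjusted p = 0.000128), and Nos2, the inducible nitric oxide synthase that competes for arginine, had no row in the table.

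Of 7 tested genes that exchange proline and ornithine, 0 rose and 1 fell. This was Aldh18a1, pyrroline-5-carboxylate synthase, at 181 ± 4.19 and 173 ± 5.58 CPM (log2 fold change -0.07, adjusted p = 0.0301). Its call was lost with DESeq2 (-0.07) and without IL-10-producing replicate 1 (-0.05, adjusted p = 0.215), IL-10-producing replicate 2 (-0.07, adjusted p = 0.0746) or IL-10-negative replicate 2 (-0.05, adjusted p = 0.177). Pycr1, which makes proline, stood at 10.7 ± 0.603 and 9.54 ± 0.851 CPM (adjusted p = 0.0959), and passed as higher without IL-10-negative replicate 1 (0.23, adjusted p = 0.0386).

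Antizymes bind ornithine decarboxylase and send it to the proteasome. The list held 3 antizyme genes and Azin2, which encodes an antizyme inhibitor; of these 4 tested genes 1 fell and 0 rose. Oaz2 stood at 29.48, 30.11 and 30.46 CPM in the IL-10-producing libraries and 34.78, 34.54 and 33.46 CPM in IL-10-negative libraries, without overlap (log2 fold change -0.19, adjusted p = 0.000694). The more abundant Oaz1 was at 211 ± 0.606 and 206 ± 3.16 CPM and did not pass the test (0.04, adjusted p = 0.193), nor did Oaz3, under 1 CPM, or Azin2, at 4.28 ± 0.273 and 4.51 ± 0.267 CPM.

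Of the 2 tested genes of polyamine breakdown, Smox, spermine oxidase, fell from 147 ± 0.842 to 138 ± 2.42 CPM (log2 fold change -0.09, adjusted p = 0.00404), and Paox was near 5 CPM in both groups and did not pass. Of the 3 tested polyamine transport genes, 2 rose. Both encode P5-type ATPases that move polyamines out of endosomes and lysosomes into the cytosol: Atp13a3 rose from 354 ± 10.1 to 398 ± 5.01 CPM (0.17, adjusted p = 4.58e-07) and Atp13a2 from 112 ± 0.997 to 124 ± 4.08 CPM (0.15, adjusted p = 8.69e-05).

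For hypusine, the spermidine-derived residue, 2 of 4 tested genes rose. Eif5a, whose protein carries it, stood at 662.2, 665.8 and 665.4 CPM in IL-10-producing and 604.1, 614.3 and 609.9 CPM in IL-10-negative libraries, without overlap (log2 fold change 0.12, adjusted p = 2.03e-06). Its paralog Eif5a2 was at 21.1 ± 2.24 and 18.5 ± 0.587 CPM (0.19, adjusted p = 0.0171), a call lost without IL-10-producing replicate 2 (0.12, adjusted p = 0.195), IL-10-negative replicate 1 (0.18, adjusted p = 0.0526) or IL-10-negative replicate 3 (0.18, adjusted p = 0.0578). The enzymes that make the residue, Dhps (31.5 ± 0.812 and 31.2 ± 1.12 CPM) and Dohh (28.8 ± 0.616 and 28.9 ± 0.922 CPM), did not pass.

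The methionine cycle supplies S-adenosylmethionine and recovers the methylthioadenosine left by spermidine and spermine synthesis. Of its 12 tested genes, 3 rose and 3 fell. Ahcy, S-adenosylhomocysteine hydrolase, rose from 135 ± 4.87 to 162 ± 5.59 CPM (log2 fold change 0.26, adjusted p = 4.03e-08), and in the salvage route Mri1 rose from 25.5 ± 0.976 to 29.1 ± 1.5 CPM (0.19, adjusted p = 0.00293). Mat2b, the regulatory subunit of the enzyme that makes S-adenosylmethionine, fell from 62.1 ± 1.26 to 56.4 ± 1.35 CPM (-0.14, adjusted p = 0.00131), and Mtr, methionine synthase, from 63.9 ± 2.23 to 58.1 ± 0.369 CPM (-0.14, adjusted p = 0.00197). The other 2, named after their values were seen, were Mtap, the first salvage enzyme (63.5 ± 1.57 to 68.2 ± 2.15 CPM), and Mat2a, the catalytic subunit (169 ± 4.91 to 162 ± 1.53 CPM). The Mat2a call (-0.06, adjusted p = 0.0482) was lost under 10 of 14 alternatives: with DESeq2, its size factors, either limma fit, no filter or the replicate block (adjusted p of 0.0501 to 0.0864), without any 1 of the IL-10-producing libraries (up to 0.176) and without IL-10-negative replicate 2 (-0.04, 0.3). The Mtap call (0.10, adjusted p = 0.0157) was lost with library size only (0.0957) and without IL-10-producing replicate 3 (0.0707) or IL-10-negative replicate 1 (0.0767).

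Among 15 transcription factors and receptors linked to Arg1 or Odc1, 4 rose and 7 fell. Il4ra, the receptor chain for the IL-4 that all cells received, rose from 433 ± 4.39 to 544 ± 1.78 CPM (log2 fold change 0.33, adjusted p = 1.77e-13), whereas Stat6, which carries its signal, fell from 117 ± 1.29 to 101 ± 0.641 CPM (-0.21, adjusted p = 1.73e-07). Pparg, a nuclear receptor that acts with STAT6 on Arg1 in macrophages, rose from 119 ± 3.70 to 146 ± 2.71 CPM (0.29, adjusted p = 1.89e-09). Myc, whose protein activates Odc1, stood at 68.2 ± 2.29 and 68.4 ± 0.718 CPM and did not pass (adjusted p = 0.984). Its relative Mycn, named after its values were seen, fell from 4.46 ± 0.435 to 0.512 ± 0.0284 CPM (-3.11, adjusted p = 2.01e-13, or -1.66 with limma on log2 of the authors' values plus 1). Most tested markers of T cells, of mast cells, basophils and eosinophils, and of neutrophils and their precursors fell between the same groups. Their part in the fall of Mycn, or in the other changes of this list, was not tested. Mxd4, a partner of MAX that opposes MYC at E-boxes, fell from 116 ± 3.58 to 78.6 ± 3.22 CPM (-0.56, adjusted p = 1.62e-13). The 2 other rises, of Hif1a (607 ± 2.70 to 651 ± 7.33 CPM) and Mxd3 (26.0 ± 0.745 to 30.6 ± 1.30 CPM), are named after their values were seen, as are the 4 other falls. These were of Klf4 (6.9 ± 0.756 to 3.44 ± 0.851 CPM), Mxd1 (56.8 ± 3.64 to 50.8 ± 1.83 CPM), Max (53.2 to 49.1 CPM, log2 fold change -0.12, SE 0.0386) and Mnt (44.6 ± 0.757 to 41.4 ± 1.18 CPM). The call of Max was lost without IL-10-producing replicate 2 or 3 or IL-10-negative replicate 2 or 3 (adjusted p up to 0.106). That of Mnt was lost with DESeq2 (0.0578) and without IL-10-producing replicate 1 or 3 or IL-10-negative replicate 1 or 3 (adjusted p up to 0.112).

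**Figure D4:**
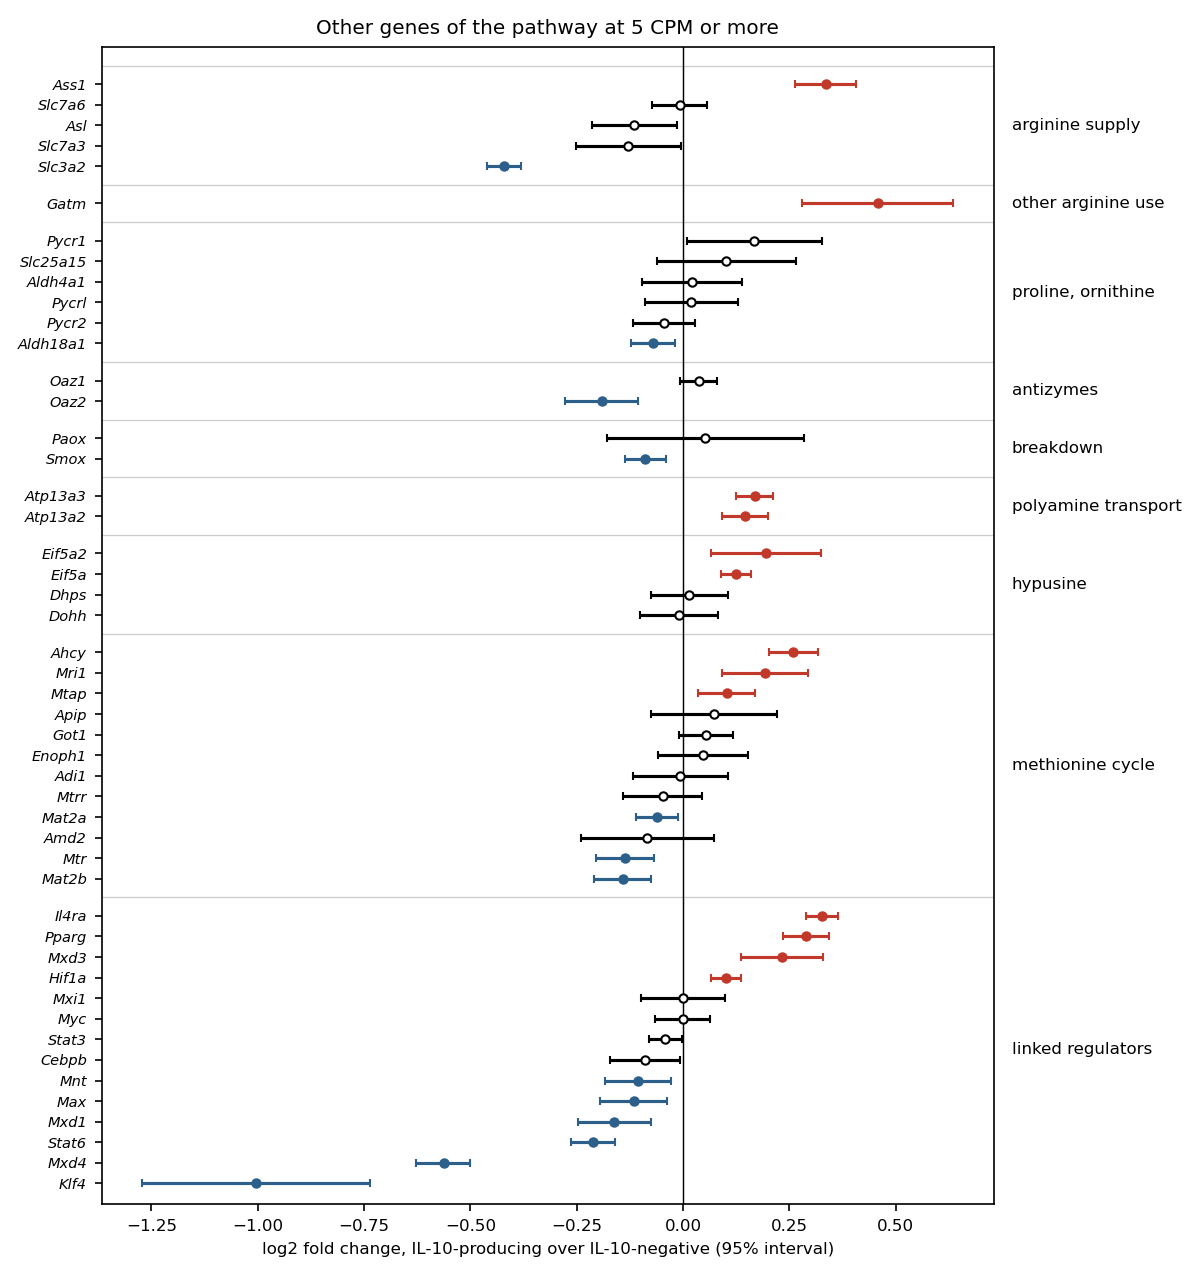
Log2 fold change, IL-10-producing over IL-10-negative, with 95% intervals for the 48 pathway genes that reached 5 CPM in at least 1 group's mean, ordered within each list; red symbols rose, blue fell and open ones did not pass the test. The lists hold changes in both directions, with Gatm at 0.46, Slc3a2 at -0.42 and Mxd4 at -0.56; the lowest point is Klf4, which had 3.44 and 6.9 CPM and is named after its values were seen.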

How the data were processed

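Total RNA (10 ng per library) of 6 libraries was sequenced. The submitters' processing notes name the tools STAR 2.5.3a, bcl2fastq 2.17.1.14 and Partek and the build mm10; the counting method, the annotation release and the use of strand are not given in the sources used here. The authors deposited estimated counts per gene, not normalized, of which 50.4% were not whole (compared exactly, with no tolerance), for 21017 genes whose smallest total was 10. They also deposited a normalized signal table of 13824 genes, in which 100% of values equalled the estimated count plus 1 times a factor per library (within 1%).

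Counts were rounded and tested with edgeR 4.0.16 in R 4.3.3 (quasi-likelihood F test, TMM factors, group only), after filterByExpr (minimum count 10, minimum total 15) had kept 16654 genes. Adjustment was by the method of Benjamini and Hochberg over all of these. The script was tested on simulated data. Levels are CPM, given as mean ± SD over 3 libraries, and their precision is limited by 3 libraries per group. Among the 10 genes, counting error is small except for Arg2. It is not small for other genes under 1 CPM, such as Mertk, with 0 to 4 counts per library. Libraries of a group differed by 2.39 to 2.96 times the sampling expectation, so all 6 were used. Of the genes, 19917 had the same identifier in GENCODE M21, all at the same position once 1 was subtracted from the listed stop, and positions are 1-based. Near-identical genes were found with blastn 2.17.0 (at least 95% identity over 200 bases) and pooled where they covered 20% of the longest transcript and did not overlap the gene. Promoter sequences are RefSeq's.

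The genes and lists were chosen with earlier results of these data known. Named were the 10 genes, from each list up to 4 genes with the smallest p among those that passed with at least 5 CPM, list genes named to say that they did not pass or had no row, and the 5 genes most like Arg1. Alternatives were DESeq2 1.42.0 and its size factors, library size only, no filter, a filter of 50 counts in 3 libraries, limma 3.58.1 on the counts (voom) or on log2 values (pseudocount 1) of the table the authors normalized, a block for the replicate number, and each library left out. Pooling of copies was added after the data had been seen.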

Additional observations from a re-analysis of the deposited data

How the results depend on the processing

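The direction and the call of Arg1, Odc1, Azin1 and Sms held under all 15 alternatives, with log2 fold changes of 0.63 to 0.67, 0.11 to 0.15, 0.18 to 0.23 and 0.10 to 0.26. Over the 9 tested genes, 125 of 135 recomputed values kept their direction and side of the threshold. Without 1 library, the number of the 10 genes that were lower ranged from 0 to 1 (0 without IL-10-negative replicate 1, which ended the Oat call), and the number that were higher from 4 to 5. The 3 genes whose direction reversed never passed the test. With library size only, the log2 fold change was -0.018 for Srm, -0.009 for Sat1 and -0.019 for Amd1, and with copies pooled it was -0.005 for Amd1. With libraries left out in turn it ran from -0.015 to 0.043 for Srm, from -0.005 to 0.05 for Sat1 and from -0.034 to 0.062 for Amd1. For the 28 pathway genes that passed and 7 that did not, 446 of 490 recomputed values kept direction and side of the threshold. The 7 were Asl, Pycr1, Oaz1, Paox, Dhps, Dohh and Myc, and Azin2, Oaz3 and Amd2 were not recomputed. In all, 29 calls were lost, all of Mat2a, Mnt, Max, Aldh18a1, Mtap and Eif5a2. Reversals were of genes that did not pass: Dhps at -0.016 with library size only, Myc at 0.003 with DESeq2 and its size factors and at 0 with limma-voom, and with libraries left out in turn Dhps from -0.002 to 0.044, Dohh from -0.028 to 0.016, Paox from -0.025 to 0.165 and Myc from -0.016 to 0.028. The number of all genes changed was 5943 and ran from 5232 to 6000.

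With the replicate number as a replicate block, 5817 genes changed, 4 of the 10 genes were higher and 1 lower, and 13 pathway genes were higher and 14 lower. Deviations of same-numbered libraries correlated at 0.108, -0.031 and -0.098 over 4510 genes, so the numbers were not taken to pair the libraries; IL-10-producing libraries 2 and 3 correlated best with IL-10-negative libraries 3 (0.106) and 2 (0.115). Depth limits Arg2, with 7 and 15 counts in all.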

Other observations

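The near-identical copies of these genes were listed with RNA of their own. Of the copies of Odc1, the processed pseudogene Gm7993 stood at 37.8 ± 0.184 CPM in the producing and 35.3 ± 1.11 CPM in the negative cells (log2 fold change 0.10, adjusted p = 0.0611), and Gm17709 at 18.1 ± 0.400 and 15.6 ± 0.715 CPM (0.22, adjusted p = 0.00361). AW146154, a protein-coding gene that shares 500 bases with Odc1 at 95.2% identity, stood at 4.88 ± 0.367 and 5.74 ± 0.577 CPM (-0.23, adjusted p = 0.0811). Of the copies of Amd1, Amd2 stood at 15.5 ± 1.85 and 16.5 ± 1.55 CPM (adjusted p = 0.433) and Amd-ps3, 99.9% identical over 1005 bases, at 23.9 ± 1.48 and 23.8 ± 0.330 CPM (adjusted p = 0.976). How far these values are reads of the copies or of their parent genes was not tested.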
